A study of Mus musculus with 16 samples.

Results

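The cytosolic ribosomal protein genes were examined in bulk RNA sequencing of mouse liver. Members were chosen by name: protein-coding genes called Rps, Rpl or Rplp with a number, without the Rps6k kinases. They came to 77 of the 5205 genes in the deposited tables. Livers came from 16 male C57BL6 mice in 4 groups of 4 (TSP1F/F on LF, TSP1F/F on AMLN, TSP1ΔPf4 on LF and TSP1ΔPf4 on AMLN), each fed for 32 weeks. LF is the low-fat control diet. AMLN is a diet rich in fat, fructose and cholesterol that produces steatohepatitis. Both genotypes carried floxed Thbs1, the gene of thrombospondin 1 (TSP1), and TSP1ΔPf4 mice also carried Pf4-Cre, which is driven by a promoter of megakaryocytes and platelets rather than of liver cells. Thbs1 was listed only in the TSP1F/F table, so its deletion was not checked here.

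Each table compared the diets within 1 genotype and held only genes that the authors' test of diet had placed under an unadjusted p of 0.05. There were 3399 genes listed for TSP1ΔPf4 and 2558 genes for TSP1F/F, with 752 in both. Of the members, 76 were in the TSP1ΔPf4 table and 3 in the TSP1F/F table (Rps25, Rpl7l1 and Rpl7a), and Rps25 and Rpl7l1 were in both. Since the genes were selected on the diet contrast, every diet difference below is a description without a test. The same name rule found 91 genes in the mouse annotation, and the 15 in neither table, such as Rps3, Rpl4 and Rpl24, were not analysed here.

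The ribosome is built from a small (40S) and a large (60S) subunit, each a scaffold of ribosomal RNA to which ribosomal proteins bind. Rps genes encode 40S proteins, and Rpl and Rplp genes encode 60S proteins. Most are made in equal amounts for assembly. Their mRNAs typically begin with a run of C and T bases, the terminal oligopyrimidine tract, through which mTOR signalling controls their translation.

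Runs of C and T around the annotated starts varied between members, and a run near a start need not be the tract that begins the mRNA. Of the 77 members, 56 had an entry in the RefSeq promoter table (GRCm38.p6), with 67 starts. The window covers 60 bases before and 30 bases from each start, 5′ to 3′ on the gene strand, with the longest run of C and T in capitals. The 6 shown are Rps25 (chr9:44407654-44407743, plus strand), Rpl7l1 (chr17:46782627-46782716, minus strand), Rpl7a (chr2:26910747-26910836, plus strand), Rpl11 (chr4:136053364-136053453, minus strand), Rpl41 (chr10:128549139-128549228, minus strand) and Rps4x (chrX:102189362-102189451, minus strand). The first 3 make up the TSP1F/F members, Rpl11 has a long run, and Rpl41 and Rps4x lie near the ends of the range of diet differences. In Rps25, Rpl7l1, Rpl41 and Rps4x the marked run lies before the annotated start, in Rpl11 after it, and in Rpl7a across it.
Rps25: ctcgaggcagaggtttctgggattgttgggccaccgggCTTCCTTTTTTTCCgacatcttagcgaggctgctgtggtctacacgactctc
Rpl7l1: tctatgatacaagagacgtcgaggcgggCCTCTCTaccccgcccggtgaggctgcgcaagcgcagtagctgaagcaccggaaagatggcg
Rpl7a: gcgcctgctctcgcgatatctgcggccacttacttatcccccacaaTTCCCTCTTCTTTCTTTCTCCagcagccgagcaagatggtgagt
Rpl11: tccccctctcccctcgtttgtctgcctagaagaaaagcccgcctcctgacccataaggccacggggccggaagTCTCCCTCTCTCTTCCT
Rpl41: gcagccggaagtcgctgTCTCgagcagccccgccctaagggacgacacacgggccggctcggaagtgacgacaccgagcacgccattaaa
Rps4x: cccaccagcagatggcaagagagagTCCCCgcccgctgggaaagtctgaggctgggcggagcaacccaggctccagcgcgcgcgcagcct

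A run of at least 8 C or T bases on the gene strand was present at 41 of the 67 member starts (61.2%) and at 33.4% of the 32784 other starts. Of the 41 longest runs, 20 lay before the annotated start, 15 across it and 6 after it. On the opposite strand it was present at 15 member starts (22.4%) and 35.7% of the others. Over the full 300.0-base entries and on either strand, CCGGAAG was found at 35.8% of member starts and 8.80% of the others, AAGATGG at 17.9% and 6.31%, and TATAAA at 10.4% and 13.6%. Among members of the TSP1ΔPf4 table, the diet difference had a median of -1.08 for the 37 with a run of this length and -0.89 for the 18 without one.

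In TSP1ΔPf4 livers, all 76 listed members were lower on AMLN than on LF, by a median of 2.03-fold. The log2 difference (mean log2 of CPM, the counts per 1000000 of the library total, plus 0.5, AMLN minus LF) had a median of -1.02 and ranged from -2.40 for Rps27a to -0.35 for Rpl29. Of the 3399 listed genes, 55.8% were lower, with a median of -0.50 over all of them. For 35 members every AMLN mouse lay below every LF mouse, against a background of 27.3% of listed genes. The contrast chose the genes, so nothing is read from either count. In bulk tissue, fewer cells of a type and less RNA per cell cannot be told apart.

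**Figure D1:**
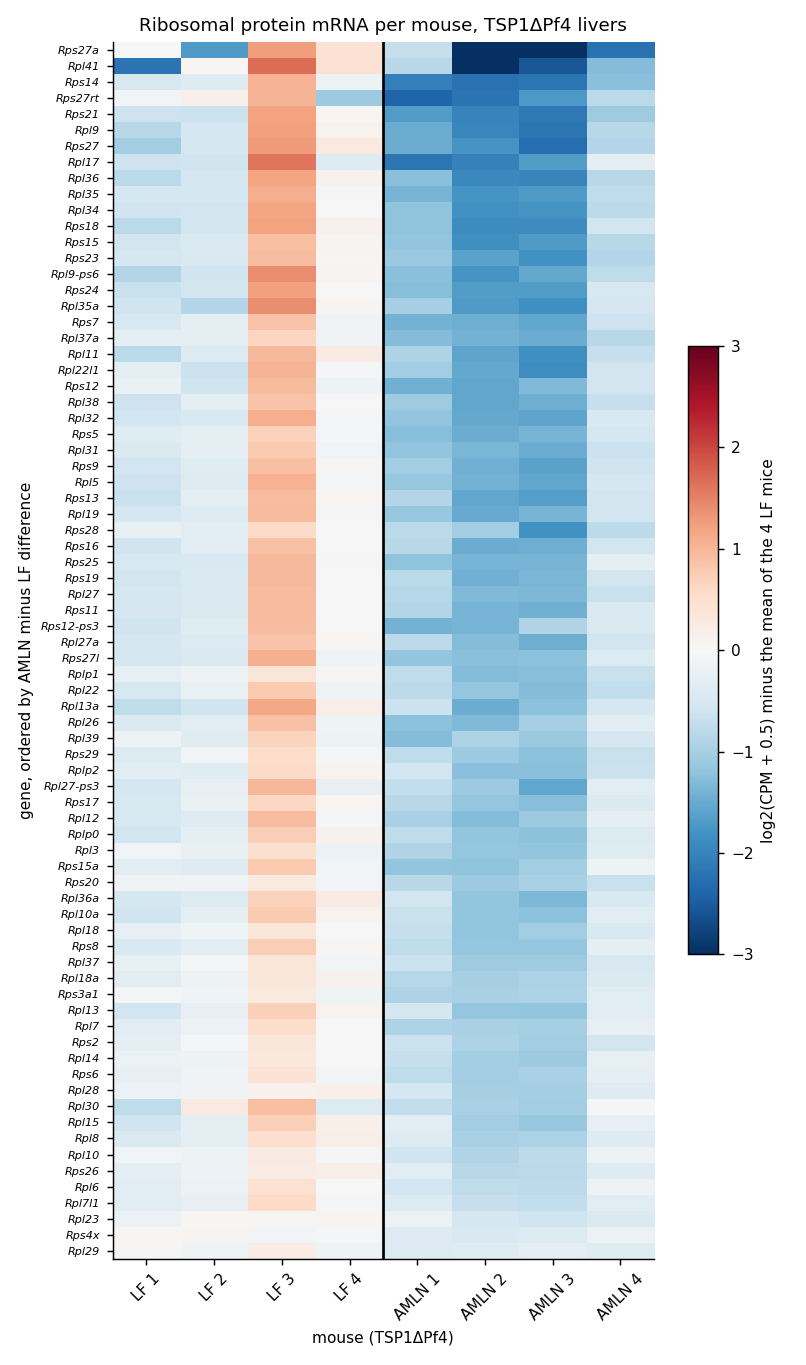
Level of 76 ribosomal protein genes (rows, from the most to the least negative diet difference) in 8 TSP1ΔPf4 mice (columns), as log2(CPM + 0.5) minus the mean of the 4 LF mice, blue lower and red higher. LF mouse 3 is red in nearly every row, and AMLN mouse 4 is the palest of the AMLN mice in most rows.

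**Figure D2:**
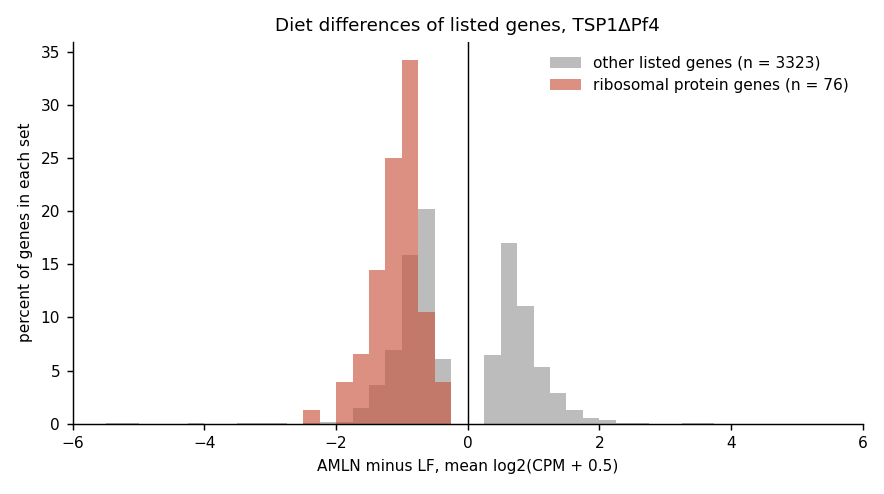
Histogram of AMLN minus LF in log2(CPM + 0.5) for 76 ribosomal protein genes (red) and the other genes (grey) of the TSP1ΔPf4 table, each as a percent of its set. The gap around 0 reflects the selection of the table, and every ribosomal protein gene lies left of it.

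Together the 76 genes made up 1.63, 1.81, 3.99 and 2.27% of the library in LF mice 1 to 4 and 1.14, 0.872, 0.873 and 1.53% in AMLN mice 1 to 4. The mean was 2.42% ± 1.08 (SD, n = 4) on LF and 1.11% ± 0.313 (SD, n = 4) on AMLN. The diets did not overlap in this sum, but LF mouse 1 and AMLN mouse 4 were close.

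Among the 40S members, all 31 were lower, with a median log2 difference of -1.09. Rps27a, which encodes ubiquitin fused to a 40S protein, had the most negative difference. Its CPM was 212, 64.2, 501 and 284 in LF mice and 128, 20.6, 20.3 and 44.0 in AMLN mice, a difference of -2.40 (SE 0.88). LF mouse 2 lay below AMLN mouse 1, so its groups overlapped. Rps21 was at 108, 107, 384 and 175 CPM on LF and 52.0, 41.0, 37.1 and 79.0 on AMLN, without overlap (-1.73, SE 0.49). Rps14, also without overlap, was at 911, 981, 2619 and 1144 CPM on LF and 306, 269, 278 and 536 on AMLN (-1.94, SE 0.42). Rps6, the target of the S6 kinases, differed less, by -0.75 (SE 0.23). Its CPM was 394, 438, 634 and 446 on LF and 279, 232, 238 and 391 on AMLN, without overlap. Rps4x, on the X chromosome, had the smallest 40S difference, -0.36 (SE 0.07), with the LF mice at 281, 285, 256 and 264 CPM and the AMLN mice at 207, 198, 205 and 239. The Rps4x groups did not overlap because its mice varied little.

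Among the 60S members, all 45 were lower, with a median log2 difference of -0.96. Rpl41, which encodes a very small basic protein, had the most negative difference (-1.97, SE 0.98) and the largest error. Its CPM was 89.4, 436, 1329 and 574 on LF and 235, 45.3, 69.3 and 169 on AMLN, so LF mouse 1 lay below 2 AMLN mice. The 4 stalk genes, which recruit translation factors, had values close together: Rplp0 by -0.90 (SE 0.34), Rplp1 by -1.0 (SE 0.21), Rplp2 by -0.93 (SE 0.29) and Rpl12 by -0.91 (SE 0.39). Rpl5 and Rpl11, which bind 5S RNA and can bind the p53 regulator Mdm2, differed by -1.17 (SE 0.43) and -1.25 (SE 0.48), and both overlapped between diets. The 7 proteins around the exit of the peptide tunnel had a median of -1.15. Rpl3 and Rpl10, near the peptidyl transferase centre, differed by -0.90 (SE 0.25) and -0.61 (SE 0.19). The smallest 60S differences were those of Rpl29, at 90.7, 80.9, 103 and 80.3 CPM on LF and 67.5, 68.9, 73.0 and 68.6 on AMLN, and of Rpl23 (-0.43, SE 0.11).

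The 7 members that are paralogs, or carry a pseudogene-style name (-ps) while annotated as protein-coding, were also lower, with a median of -1.04. None of the 7 was without overlap, against 27.3% of all listed genes, and nothing is read from so small a set. These members were Rps27rt, Rps27l, Rpl22l1, Rpl7l1, Rpl9-ps6, Rps12-ps3 and Rpl27-ps3, with differences of -1.79, -1.02, -1.25, -0.54, -1.33, -1.04 and -0.93. Such copies can share reads with their parent genes, so their separate values are uncertain. All 48 listed genes that were annotated as pseudogenes of ribosomal proteins were lower as well (median -0.96). Exons of 30 members overlapped another gene, and strand was not stated for the counting.

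Levels between genes were compared per length, as FPKM. On LF, Rplp1 was highest (1148), followed by Rps14 (1022) and Rps15 (801). Rpl27-ps3 (10.3), Rpl13a (11.1) and Rpl22l1 (15.2) were lowest. The deposited length was at least 1.5 times that of the shortest principal transcript for 59 members, which lowers their FPKM. Per kilobase of that transcript, Rps14 was highest at 2369 CPM and Rplp1 was at 1148 CPM. Rpl13a, whose exons overlapped 3 other genes, was lowest of 75 on this measure, at 22.5 CPM. Whether reads of Rpl13a were lost to other genes or copies was not tested.

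Members varied together among mice of 1 group. The median Pearson correlation between 2 members over the deviations of the 8 mice from their group means was 0.91, and it was 0.04 between any 2 of the 3399 genes. Points share libraries and their scaling, so these are descriptions. LF mouse 3 was above its group mean for 75 of 76 members (median deviation 0.86 on the log2 scale), and AMLN mouse 4 for 74 (0.53). LF mouse 1 was below the mean for 73 members, and AMLN mice 2 and 3 for 74 and 73. Members that varied most on LF also varied most on AMLN (Spearman's rho 0.86 for the SD of log2 levels over 76 genes, and 0.30 over all listed genes). Without LF mouse 3 the median diet difference was -0.74, and without AMLN mouse 4 it was -1.18, with 68 members then free of overlap, against 41.7% of all listed genes under the same omission.

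Library totals also differed between the diets. They were 17128000 to 20700900 counts in the TSP1ΔPf4 LF mice and 23221500 to 31363500 in the AMLN mice, without overlap. Diet and library total therefore cannot be told apart in this genotype. Within each of the 4 groups, the library with the smallest total also had the highest summed member level. At the other end, only in TSP1F/F mice on AMLN did the library with the largest total have the lowest level. In the TSP1F/F mice totals were 18135100 to 26649600 on LF and 18362800 to 39753000 on AMLN.

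**Figure D3:**
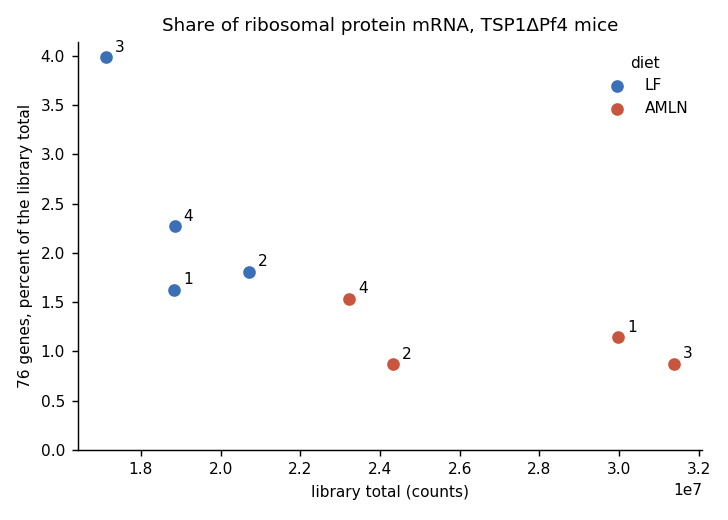
Share of the library taken by 76 ribosomal protein genes (y, percent, from 0) against the library total (x, counts) in 8 TSP1ΔPf4 mice, numbered within each diet. LF mouse 3 has the smallest total and the largest share (3.99%), and the LF and AMLN totals do not overlap.

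Transcript length moved with the difference too. Of the 76 members, 60 had a main transcript under 1000 bases. Among other listed protein-coding genes of TSP1ΔPf4 livers, 90.0% of the 468 under 1000 bases were lower on AMLN (median -0.81), against 14.4% of the 666 with 4000 bases or more (median 0.65). Short genes that were no members also had their highest median deviation in LF mouse 3 (0.58) and AMLN mouse 4 (0.31), the mice in which members were highest. In TSP1F/F livers 41.2% of the 177 short genes and 14.6% of the 547 with 4000 bases or more were lower. The part of transcript length or RNA quality in the members' difference was not tested.

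**Figure D4:**
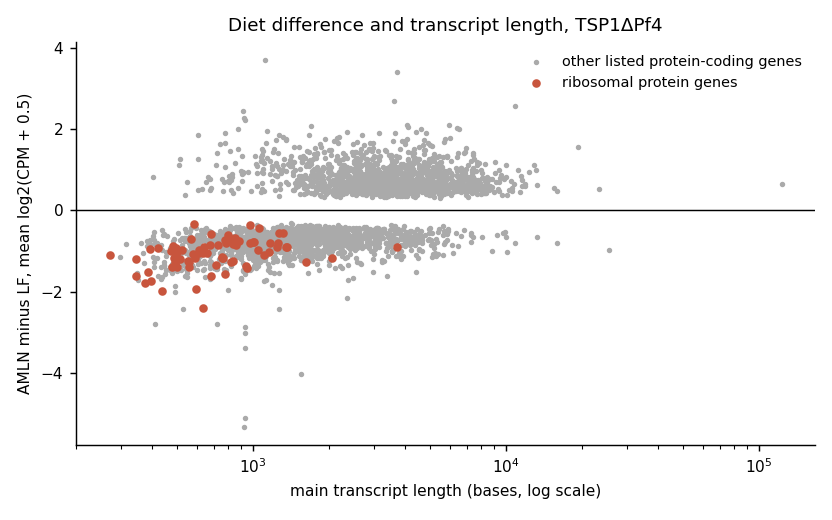
AMLN minus LF in log2(CPM + 0.5) against main transcript length in bases (log axis) for listed protein-coding genes of TSP1ΔPf4 livers, members in red and others in grey. Members lie among the short genes, most of which are below 0, and the longest genes lie mostly above 0.

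Other genes of translation and energy metabolism in the TSP1ΔPf4 table were counted for context. Of 5 genes of ribosomal components outside the naming rule, 4 were listed and all 4 were lower (median -1.24). Among them Fau, Rpsa and Rack1 were lower by 1.39, 1.10 and 1.04 on the log2 scale. Of 20 other translation genes with terminal oligopyrimidine tracts, 12 were listed: 10 were lower, and Pabpc1 (0.41) and Eif3l (0.40) were higher. All 6 listed of 32 ribosome biogenesis genes were lower (median -0.63). Of 78 mitochondrial ribosomal proteins 40 were listed and 39 were lower (median -0.81), and all 69 listed of 90 nuclear respiratory chain genes were lower (median -0.92). These 2 lists also had their highest median deviation in LF mouse 3 (0.70 and 0.66). The 12 listed mitochondrially encoded genes were lower (median -1.24), with their highest deviation in LF mouse 1 (0.37) instead. The 4 listed of 27 mTOR pathway genes (median 0.65) and the 5 listed of 9 p53 and ribosomal stress genes (median 0.95) were higher. Among the latter, Cdkn1a, a cell cycle inhibitor, was higher by 2.28. Both lists had their lowest median deviations in LF mouse 3 (-0.57 and -0.30) and AMLN mouse 4 (-0.66 and -0.46).

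Cell type markers differed between diets beside these values. The 9 listed of 12 monocyte-derived macrophage markers were all higher on AMLN in TSP1ΔPf4 livers, with a summed level of 43.1 to 104 CPM on LF and 125 to 226 CPM on AMLN, and 2 of them were at 0 in some mouse. Of the 6 listed of 12 hepatocyte markers 5 were lower, with a sum over all 6 of 28087 to 38355 CPM on LF and 14602 to 21273 CPM on AMLN. Most of this sum came from Apoa1, Apoa2 and Ttr. Hnf4a, the other marker, was higher, with a mean of 282 CPM on LF and 429 CPM on AMLN and with overlap. Higher on AMLN were 3 of 4 listed Kupffer cell markers, 4 of 4 stellate cell markers, 3 of 4 T cell markers and 2 of 3 endothelial markers. The 3 higher T cell markers were each at 0 in some mouse. Zap70, the other T cell marker, had a mean of 37.1 CPM on LF and 13.0 CPM on AMLN, with overlap. The summed level of the T cell markers was 15.6 to 59.7 CPM on LF and 8.83 to 20.2 CPM on AMLN. The part of any of these cell types in the members' difference was not tested.

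In TSP1F/F livers the 3 listed members were lower on AMLN, and each overlapped between diets. Of all 2558 genes, 32.5% were lower and 13.3% were lower without overlap. Rps25 was at 427, 765, 1614 and 430 CPM on LF and 252, 565, 229 and 626 on AMLN (-0.87, SE 0.59). Rpl7l1, a paralog of the 60S gene Rpl7, was at 68.6, 102, 170 and 77.9 CPM on LF and 51.0, 72.0, 55.8 and 65.9 on AMLN (-0.69, SE 0.31). Rpl7a, a 60S protein, was at 25.2, 75.8, 144 and 58.2 CPM on LF and 30.9, 42.0, 32.2 and 24.9 on AMLN (-0.98, SE 0.54). In all 3 genes LF mouse 3 was highest. A gene absent from the TSP1F/F table is not shown to be unchanged by diet there.

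The question of whether platelet TSP1 altered these genes was tested on the 752 genes in both tables, which bear on Rps25 and Rpl7l1 alone. The 752 genes were listed for a diet difference in these same mice, so the shares called below are those of a selected set. In TSP1ΔPf4 livers Rps25 was at 294, 301, 807 and 403 CPM on LF and 178, 156, 157 and 334 on AMLN. Rpl7l1 was at 60.7, 65.1, 117 and 75.5 CPM on LF and 57.6, 47.8, 45.7 and 60.8 on AMLN. All 4 groups overlapped with another for both genes.

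**Figure D5:**
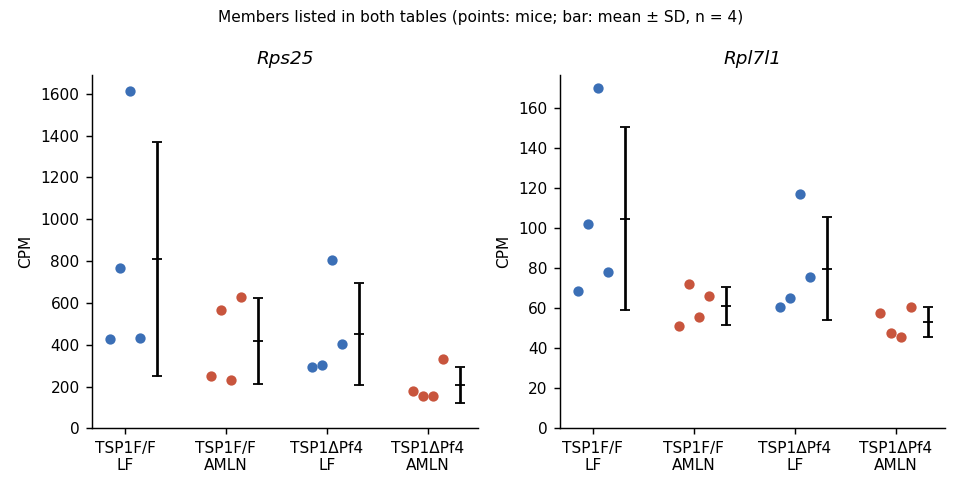
CPM (y, from 0) of Rps25 and Rpl7l1 in 16 mice, with 4 points a group and the mean ± SD beside them, LF in blue and AMLN in red. LF mouse 3 is the highest point of its group in each genotype, at 1614 and 807 CPM for Rps25.

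On AMLN, edgeR's quasi-likelihood test called 66 of 733 genes tested (9.00%, Benjamini-Hochberg adjusted p under 0.05 and a log2 difference over 0.25 in size), 62 of them lower and 4 higher in TSP1ΔPf4, and neither member. The split was 37 lower and 11 higher with TMM factors and 56 and 17 with DESeq2, and leaving out TSP1ΔPf4 mouse 2 lowered the count to 22. A block on the mouse numbers, which the labels do not tie to any pairing, gave 116 calls. Only this setting called a member (Rps25, -0.95, edgeR adjusted p = 0.0269). Rps25 differed by -1.02 (TSP1ΔPf4 minus TSP1F/F, SE 0.40, edgeR adjusted p = 0.132) and Rpl7l1 by -0.21 (SE 0.25, edgeR adjusted p = 0.645). The median over the tested genes was -0.38, and it was -0.10 with TMM factors and -0.04 in the DESeq2 fit, which also tested more genes. Rpl7l1 was higher, by 0.070, with TMM factors and by 0.13 in the DESeq2 fit.

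On LF, the same test called 0 of 640 genes (0.00%), 44 had an unadjusted p under 0.05, and DESeq2 called 0 as well. Rps25 differed by -0.84 (SE 0.48, edgeR adjusted p = 0.676) and Rpl7l1 by -0.40 (SE 0.34, edgeR adjusted p = 0.728). Without TSP1F/F mouse 3 these were -0.26 and -0.060. The interaction of diet and genotype called 3 of 734 genes (0.409%) and neither member, and 110 had an unadjusted edgeR p under 0.05. Its median over the tested genes was -0.34, and 0.0013 in the DESeq2 fit. The interaction was -0.18 (SE 0.66, edgeR adjusted p = 0.964) for Rps25 and 0.19 (SE 0.41, edgeR adjusted p = 0.935) for Rpl7l1. The shared genes had all passed the authors' diet test in both genotypes, so genes listed for 1 genotype alone were left out. The interaction values therefore say little on whether the diet difference of a member depends on genotype.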

How the data were processed

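Total liver RNA from 16 mice was sequenced as paired reads (Novogene). The study's methods name STAR for alignment to mm10, whereas the submitters' processing notes name HISAT2. DESeq2 appears in both, and the counter, annotation release and strand setting were not given in the sources used here. The authors deposited, per mouse, counts, a size-factor normalised signal (counts divided by 1 factor per library) and FPKM per deposited gene length. The deposited log2 fold changes and p-values of the authors' own diet comparisons were not used, except that all rows were checked to have a p-value under 0.05. There were 0 unmatched columns of per-mouse values.

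Library totals were computed from counts, gene lengths and FPKM, and CPM are counts per 1000000 of that total. Diet differences are differences of mean log2(CPM + 0.5), with no test. Counts of members ranged from 37 to 44862, and all 76 and 3 members passed edgeR's filter on low counts. Genotype comparisons and the interaction were fitted with edgeR 4.0.16 (quasi-likelihood) on shared genes that passed this filter, scaled by library totals, with Benjamini-Hochberg adjustment. The script was checked on simulated data, in which most of the larger changes set were called and nearly all of the smaller ones were missed. The smaller changes were about the size of the Rps25 difference between genotypes on AMLN. Alternatives used DESeq2 1.42.0, TMM, other pseudocounts, no filter, a replicate block and leaving out each mouse. Coordinates match GENCODE vM21 (GRCm38) for 94.8% and 96.1% of rows.

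Genes were named by rule: members in both tables, the 5 largest rises and falls of each table (no member was higher), the 3 highest and lowest FPKM, paralogs, and genes of fixed lists. The smallest differences and Rps6 were named after their values were seen. Members and lists were chosen with earlier results of these data known. Separate animals are given by the labels, so p-values measure the spread between mice.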

Additional observations from a re-analysis of the deposited data

Results flagged for a closer look

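Of 162 groups of 4 mice examined (each member, and their sum, by diet and genotype), 7 held a mouse whose gap to the nearest other mouse, as a share of the group's range on the log2 scale, passed Dixon's 95% critical value. Chance flags about 1 in 20 groups, and the members share the same mice. In TSP1ΔPf4 mice on LF, mouse 3 stood apart for Rpl17 (427 CPM, the others at 90.0 to 107, ratio 0.888) and Rps20 (230 CPM, the others at 174 to 177, ratio 0.940). In TSP1ΔPf4 mice on AMLN, mouse 4 stood apart for Rpl7 (445 CPM against 266 to 279, ratio 0.908), Rps15a (161 CPM against 78.0 to 86.5, ratio 0.857) and Rps27l (181 CPM against 102 to 106, ratio 0.938). It also stood apart for Rps3a1 (400.1 CPM against 256 to 264, ratio 0.934) and Rps7 (291 CPM against 151 to 166, ratio 0.854).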

How the results depend on the processing

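In TSP1ΔPf4 mice the median member difference stayed negative under all 16 alternatives, between -1.20 and -0.69, and in TSP1F/F mice under all 15, between -1.24 and -0.46. All listed members stayed lower when any 1 mouse was left out. Running without the filter repeated the main values, since every member passed it. The genes were listed for a diet difference in these same mice, so a kept sign is no further support. DESeq2 size factors moved the median of all listed TSP1ΔPf4 genes from -0.50 to -0.18 and that of members to -0.69. Leaving out 1 mouse gave 35 to 68 TSP1ΔPf4 members without overlap (57 without LF mouse 1, 68 without AMLN mouse 4) and 0 to 2 TSP1F/F members. Over all listed genes the same omissions gave 28.1 to 41.7% (37.2% without LF mouse 1) and 14.1 to 19.4%. The TSP1ΔPf4 count was 68 without LF mouse 3 and AMLN mouse 4 together, chosen after seeing the data (42.7% of all listed genes). With deposited size factors, TMM and DESeq2 size factors it was 34, 27 and 31. Each of these scalings gave 1 TSP1F/F member. The share of all listed genes without overlap was not computed under these scalings.

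For genotype on AMLN, leaving out 1 mouse gave 22 to 84 calls, the lowest without TSP1ΔPf4 mouse 2 (33 without mouse 1, 30 without mouse 3, and 36 without TSP1F/F mouse 3). The calls were 62 lower and 4 higher, 37 and 11 with TMM, and 56 and 17 with DESeq2. Rpl7l1 turned to 0.13 with DESeq2 and 0.070 with TMM. On LF, leaving out 1 mouse gave -1.28 to -0.26 for Rps25 and -0.64 to -0.060 for Rpl7l1. The interaction called 45 genes with DESeq2, 15 with TMM and 0 to 24 with 1 mouse left out. Rps25's interaction turned to 0.074 with DESeq2, 0.066 with TMM and to 0.0020 to 0.26 without 1 of TSP1ΔPf4 LF mouse 3, TSP1F/F AMLN mouse 2 or 4 or TSP1F/F LF mouse 1 or 4, and Rpl7l1's to -0.15 without TSP1F/F LF mouse 3. With 1 mouse left out they ranged from -0.76 to 0.26 and from -0.15 to 0.43. The cause was not tested.

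The labels number mice 1 to 4 in each group. Same-numbered mice correlated at 0.28, 0.09, 0.31 and 0.39 on AMLN and 0.21, 0.06, 0.45 and -0.05 on LF, so not every pair passed 0.1 and the numbers were not taken as pairs. On AMLN 7 of 8 mice correlated best with the mouse of their own number, and on LF 4 of 8, a hint from the data and not from the design. A replicate block gave 116 calls on AMLN, 1 of them a member (Rps25, -0.95, edgeR adjusted p = 0.0269), and 0 calls for the interaction. With 4 mice a group, small differences between genotypes cannot be resolved.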
